A study of Homo sapiens with 12 samples.

Results

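The comparison described here is that of 2 forms of the transcription factor p63, TAp63 and deltaNp63, overexpressed in AsPC-1, an established human pancreatic adenocarcinoma line that was grown from ascites. It rests on 4 of the 12 libraries of the series, which were chosen by their labels: 2 replicates of AsPC-1 cells overexpressing TAp63 and 2 of AsPC-1 cells overexpressing deltaNp63. The other 8 libraries are mock-treated AsPC-1 cells and the same 3 treatments of PANC-1, another established pancreatic cancer line, each with 2 replicates. Per the labels, replicates of a group are biological replicates, the RNA was total RNA, and the libraries were made with a stranded mRNA kit. The vector, the way it was delivered, the time of harvest and whether each replicate is a separate clone or culture are not given in the sources used here. P-values therefore measure only the spread between these replicates, which the main model pools over all 12 libraries.

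TP63 has an upstream and an internal promoter. Transcripts from the upstream promoter encode TAp63, which carries an N-terminal transactivation domain. Those from the internal promoter encode deltaNp63, which lacks that domain and is the main form in the basal layer of stratified epithelia and in squamous carcinoma. Both classes keep the p53-like DNA-binding domain, so each can bind p53-type response elements, and deltaNp63 is known both to activate genes and to compete with other p53 family members.

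The first exons that set the classes apart are short. In each line below, the capitals mark the start codon. The letters are those of the GENCODE release 44 transcript sequence over its first exon, which lies on the plus strand of hg38. The TA exon is at chr3:189631516-189631577 and the deltaN exon at chr3:189789801-189789842.
TP63-210, first exon of the TA class: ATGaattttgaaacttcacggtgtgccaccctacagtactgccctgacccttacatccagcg
TP63-212, first exon of the deltaN class: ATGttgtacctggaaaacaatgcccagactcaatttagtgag

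TP63 (ENSG00000073282, chr3:189631389-189897276 in hg38, plus strand) was measured first, since it checks the labels. Its level, summed over its transcripts, was 102 and 170 TPM (a relative abundance corrected for transcript length, with the same total in every library) in the TAp63 libraries and 245 and 350 TPM in the deltaNp63 libraries, against 1.10 and 0.817 TPM in the mock libraries. Both deltaNp63 libraries lay above both TAp63 libraries. The TAp63 minus deltaNp63 difference was -1.15 on the log2(TPM + 1) scale (SE 0.252, 95% interval -1.71 to -0.58), with a Benjamini-Hochberg adjusted p of 0.616 in limma, so it did not pass. The form of p63 and the level of TP63 RNA thus differ together between the groups and cannot be told apart. TP63 overlaps MIR944 and, on the other strand, ENSG00000227971.

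The transcripts separated the groups. In the TAp63 libraries, the upstream-start transcripts TP63-204 (ENST00000392460) and TP63-210 (ENST00000440651) were at 30.01 and 48.9 TPM and at 33.3 and 51.7 TPM, whereas in the deltaNp63 libraries neither exceeded 0.231 TPM. In the deltaNp63 libraries, the internal-start transcript TP63-212 (ENST00000456148) was at 92.6 and 135 TPM, TP63-205 (ENST00000392461) at 43.6 and 70.8 TPM and TP63-213 (ENST00000460036), annotated as a retained intron, at 26.5 and 35.4 TPM. These 3 transcripts were listed at 0 in both TAp63 libraries, so their differences are no fold changes. Upstream-start transcripts made up 64.3% and 59.8% of TP63 with TAp63, and 0.127% and 0.256% with deltaNp63.

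A limma test on transcript rows called these 5 transcripts, with adjusted p between 4.72e-06 and 6.07e-05. The groups were made by overexpressing these forms, so the calls check the labels and are no result about the cells. TP63-204 and TP63-210 were higher with TAp63, by 5.30 and 5.26 on the log2(TPM + 1) scale. TP63-212, TP63-205 and TP63-213 were lower with TAp63, with differences of -6.82, -5.82 and -4.99. TP63-211 (ENST00000449992), an internal-start transcript, was present in both groups without overlap and did not pass, at 36.5 and 67.9 TPM with TAp63 and 81.3 and 103 TPM with deltaNp63 (difference -0.87, adjusted p 0.856). How reads shared by the isoforms were divided is not given in the sources used here. Transcripts that reach past the end of TP63-210, into the 3' untranslated region, held at most 2.26 TPM in any of the 4 libraries. Those with the short alternative 3' end held at most 0.0804 TPM. The TP63 RNA of all 4 libraries was therefore assigned almost entirely to annotated transcripts that stop at or before the end of the coding sequence.

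**Figure D1:**
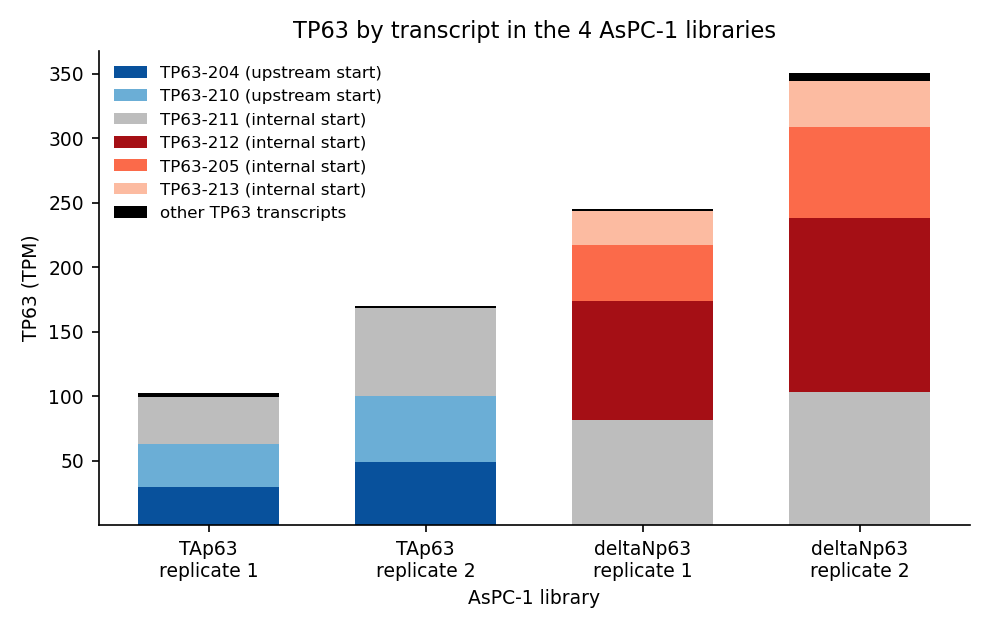
TP63 level in TPM (vertical axis) in each of the 4 AsPC-1 libraries (horizontal axis), stacked by transcript. TP63-204 and TP63-210 appear in the TAp63 bars, TP63-212, TP63-205 and TP63-213 in the deltaNp63 bars, and TP63-211 in all 4, and the totals are 102, 170, 245 and 350 TPM.

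Before the other genes are described, the libraries themselves need to be set side by side. Read depth cannot be recovered from TPM and is unknown, so the precision comes from the replicates alone. Between 12212 and 12326 genes reached 1 TPM in the 4 libraries. All 10 epithelial identity markers were expressed, and their summed level was 10455 and 11501 TPM with TAp63 and 8002 and 10900 TPM with deltaNp63. Keratins 8 and 18 and EPCAM were among the high ones. PTPRC, CD3E and MS4A1, which define leukocytes, and CDH5, which defines endothelium, were listed at 0 in all 4. Of the other markers, CD68 was at 90.8 to 106 TPM, LYZ at 102 to 119 TPM and LUM at 177 to 288 TPM in the 4 libraries. In bulk RNA, fewer cells of a type and less RNA per cell cannot be told apart.

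The deltaNp63 library of replicate 1 stood apart. Over the 14767 genes tested, the median absolute difference between the deltaNp63 replicates was 0.211 on the log2(TPM + 1) scale, and that between the TAp63 replicates was 0.148. The deltaNp63 library of replicate 2 lay closer to either TAp63 library (0.126 and 0.128) than to its own replicate. After the trend with GC content was removed from each library, the deltaNp63 pair was still at 0.190 and the same library was at 0.119 and 0.117 from the TAp63 libraries. Results that rest on replicate 1 are given with each deltaNp63 library on its own.

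**Figure D2:**
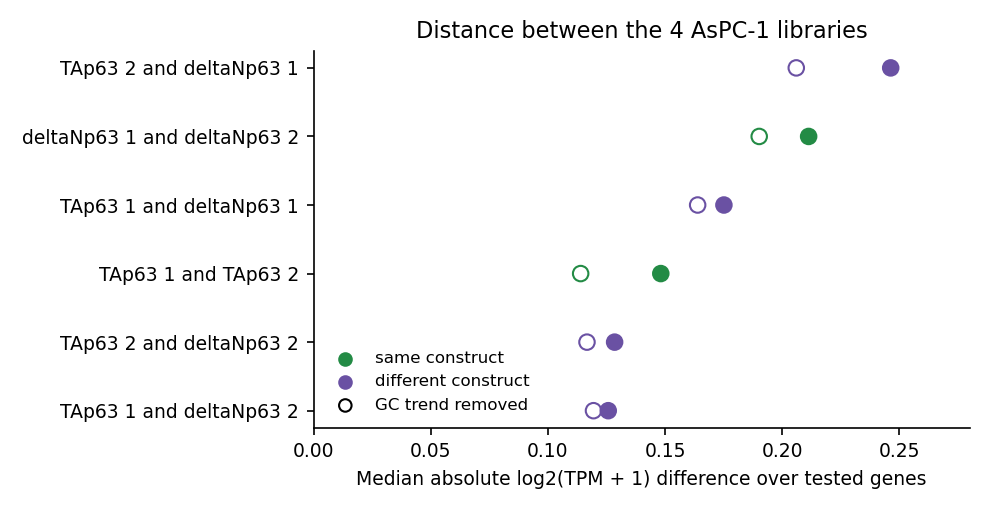
Median absolute difference on the log2(TPM + 1) scale over the tested genes (horizontal axis) for the 6 pairs among the 4 AsPC-1 libraries. Green points join replicates of a construct, purple points join different constructs, and open points have the GC trend removed; the closest pairs, at 0.126 and 0.128, join TAp63 libraries to deltaNp63 replicate 2.

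Part of this distance followed the GC content of the transcripts. In the decile of genes with the lowest GC content, the median of deltaNp63 replicate 1 minus replicate 2 was 0.17, and in the decile with the highest it was -0.20. The TAp63 pair showed a gradient of the same size, from 0.17 to -0.20, and the mock pair one from 0.09 to -0.09. The mean of the TAp63 libraries against deltaNp63 replicate 1 ran from -0.13 to 0.22, but against replicate 2 it was 0.03 and 0.01 at these ends.

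**Figure D3:**
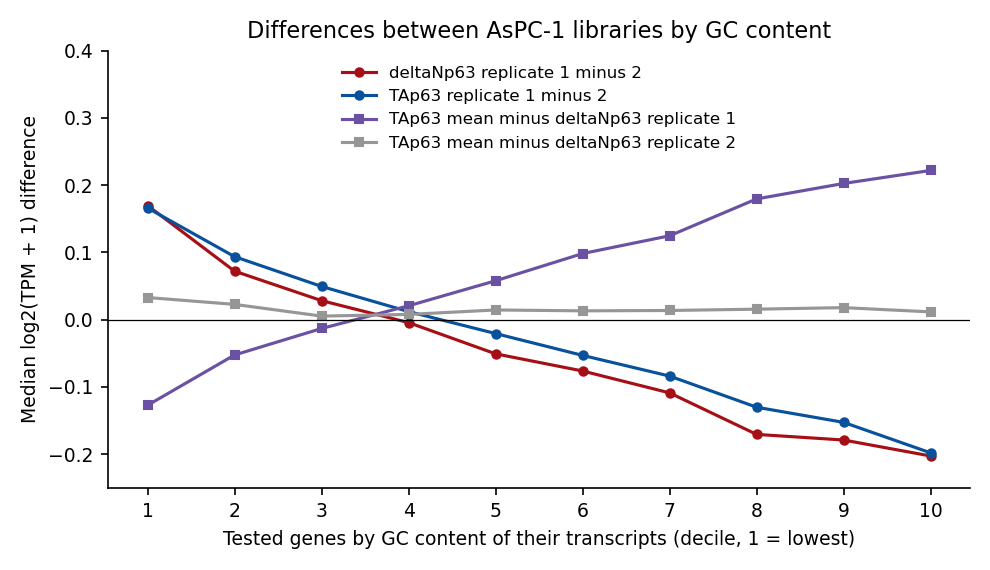
Median log2(TPM + 1) difference (vertical axis) in each decile of the tested genes by the GC content of their transcripts (horizontal axis, lowest first). Both replicate pairs fall from 0.17 to -0.20, the TAp63 mean against deltaNp63 replicate 1 climbs from -0.13 to 0.22, and against deltaNp63 replicate 2 it stays near 0.

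Few genes passed the test between the forms. Of 14767 genes, 3 had a Benjamini-Hochberg adjusted p under 0.05 in limma, which is 0.0203% of those tested, and all 3 were lower with TAp63. None of the 3 would have met the filter of 1 TPM in 2 libraries without the AsPC-1 deltaNp63 libraries, where they are high. Their shared direction is thus no independent support. The median difference over all tested genes was 0.04. An unadjusted p under 0.05 was reached by 1170 genes (7.92%), of which 820 were higher with TAp63 (5.55%) and 350 lower (2.37%). That split moved with the scaling of the libraries: it was 546 higher and 506 lower after quantile normalization and 409 and 668 after median centring. A model of only these 4 libraries, with no mock or PANC-1 library, called 0 genes, with 489 at an unadjusted p under 0.05. No exact test on 2 against 2 samples can give a two-sided p below 0.333.

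The protein-coding gene of the 3 was RASSF10 (ENSG00000189431, chr11:13009316-13012119, plus strand), a member of the Ras-association domain family. It was listed at 0 and 0.00309 TPM with TAp63 and at 2.39 and 2.27 TPM with deltaNp63, and the mock libraries had 0.746 and 1.71 TPM. The groups did not overlap, and the TAp63 libraries lay below the mock libraries as well. RASSF10 was lower with TAp63 by 1.73 on the log2(TPM + 1) scale (SE 0.189, limma adjusted p 0.021). This is no fold change, since the TAp63 libraries are at or near 0. Over the alternatives its adjusted p ran from 0.00866 to 0.85.

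The others were processed pseudogenes, whose reads a near-identical parent gene could share. ENSG00000230355 (chr2:66881087-66881222, minus strand) was listed at 0 in both TAp63 and both mock libraries and was at 1.87 and 2.06 TPM with deltaNp63. RPL39P15 (ENSG00000231414, chr2:70253855-70254010, minus strand), derived from a ribosomal protein gene, was listed at 0 in the same 4 libraries and was at 1.47 and 1.60 TPM with deltaNp63. With 1 group at 0 neither gene has a fold change, and the limma adjusted p was 0.00412 and 0.0084. Both met the filter of 1 TPM in 2 libraries only through the deltaNp63 libraries, since they were listed at 0 in all others of the series. All 3 genes were listed at 0 in the TAp63 and deltaNp63 libraries of PANC-1. None of the 3 passed in the model of the 4 libraries alone (limma adjusted p 0.122 each), and 0 genes passed when a mean of at least 5 TPM was required, with 915 at an unadjusted p under 0.05.

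Among well-expressed genes, the largest differences were then described by rule: protein-coding genes with a mean of at least 5 TPM over the 4 libraries, no overlap between the groups and an unadjusted p under 0.05. This left 733 genes, 545 higher and 188 lower with TAp63. None passed the adjusted test, so their differences are values and not calls.

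On the higher side, 5 of the 12 largest differences belonged to interferon-response genes, MX1, MX2, OAS2, OAS3 and UBE2L6, which are described below. The largest of all was CHST4, a sulfotransferase that acts on glycoproteins, at 13.5 and 15.1 TPM with TAp63 and 3.62 and 12.003 TPM with deltaNp63 (difference 0.98, SE 0.370, adjusted p 0.628). Only deltaNp63 replicate 1 was far below the rest. ALYREF, an mRNA export factor, was at 97.2 and 83.5 TPM against 33.4 and 61.3 TPM (difference 0.98, SE 0.221, adjusted p 0.616), again lowest in deltaNp63 replicate 1.

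A second set of genes was low in both deltaNp63 libraries. DHRS2, a short-chain dehydrogenase, was at 7.78 and 6.48 TPM against 4.25 and 3.67 TPM (difference 0.71, SE 0.180). CDKL1, a cyclin-dependent kinase-like gene, was at 8.51 and 8.13 TPM against 4.28 and 5.60 TPM (difference 0.66, SE 0.146). In both genes the mock libraries lay above both deltaNp63 libraries, at 5.22 and 6.87 TPM for DHRS2 and 9.38 and 9.17 TPM for CDKL1.

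Also on this side were ACOT7, an acyl-CoA thioesterase, and ERBB2, a receptor tyrosine kinase. ACOT7 was at 37.9 and 42.6 TPM against 16.6 and 33.7 TPM. ERBB2 was at 9.80 and 14.7 TPM against 5.30 and 8.78 TPM (difference 0.73, SE 0.234). In ACOT7 and ERBB2 the lowest library was deltaNp63 replicate 1. In PANC-1, ALYREF and ERBB2 went the other way without overlap, with differences of -0.22 and -0.31. CHST4, ACOT7, CDKL1 and DHRS2 differed there by 0.14, 0.07, 0.03 and 0.04. CHST4, ALYREF, CDKL1, ACOT7 and ERBB2 overlap genes on the other strand, and whether the authors' quantification used strand is not given in the sources used here.

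On the lower side the largest difference was that of DHX37 (ENSG00000150990, chr12:124946825-124989131, minus strand), an RNA helicase of ribosome assembly. It was at 1.25 and 3.33 TPM with TAp63 and at 7.23 and 10.6 TPM with deltaNp63 (difference -1.64, SE 0.321, adjusted p 0.475). The mock libraries were on the deltaNp63 side, at 8.21 and 8.62 TPM, so both TAp63 libraries were the low ones. In PANC-1 DHX37 differed by 0.02.

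After TP63 itself, the other genes on the lower side differed by between -0.72 and -0.51. COX7A2, a subunit of cytochrome c oxidase, was at 85.1 and 74.7 TPM against 135 and 124 TPM (difference -0.69, SE 0.269, adjusted p 0.628), with 109.5 and 120.3 TPM in the mock libraries. KLHL7, an adaptor of a ubiquitin ligase, was at 30.3 and 26.9 TPM against 47.2 and 35.8 TPM (difference -0.51, SE 0.131). GAST, which encodes the hormone gastrin, was at 4.84 and 6.65 TPM against 11.4 and 7.52 TPM (difference -0.62, SE 0.223). The rest were ZNG1C, BMP2K, GK5, C18orf32, TSTD3, UQCC5 and ENSG00000267360. ZNG1C has close paralogs, and C18orf32, BMP2K, TSTD3, UQCC5 and ENSG00000267360 overlap other genes, so their values are uncertain.

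Interferon-response genes had the highest median difference of the lists with at least 10 tested genes. They are switched on when interferon binds its receptors and a complex that holds STAT2 and IRF9 binds a response element in their promoters, and many of their products block viral RNA or viral assembly. Of 65 listed genes, 64 were tested, and 0 passed the adjusted test (lowest adjusted p 0.413). In 48 of the 64 both TAp63 libraries lay above both deltaNp63 libraries, and in 0 they lay below, where 19.6% and 9.87% of all tested genes did so. An unadjusted p under 0.05 in limma was reached by 40 members, all higher with TAp63, beside 5.55% of all genes in that direction. The median difference over the list was 0.33, against 0.04 over all genes.

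The list was also set against each deltaNp63 library. Both TAp63 libraries lay above deltaNp63 replicate 2 in 54 members (34.1% of all genes), and above replicate 1 also in 54 (47.4% of all genes). The list's median was 0.36 against replicate 1 and 0.29 against replicate 2, where that of all genes was 0.06 and 0.02. Against replicate 1 alone, the cell cycle list had a higher median, 0.43. After removal of the GC trend 49 members did not overlap (17.9% of all genes) and the median was 0.31. Under quantile normalization and median centring the median was 0.30 and 0.26. In the model of the 4 libraries alone, 17 members were higher at an unadjusted p under 0.05, beside 2.04% of all genes. Without deltaNp63 replicate 2, 19 members passed the adjusted test, beside 5.51% of all genes in that direction and 6.94% in either. Without deltaNp63 replicate 1 the count was 0, beside 0.00677% of all genes, with 32 members at an unadjusted p under 0.05, beside 2.59%.

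The largest difference of the list was that of MX1, an antiviral effector. MX1 (ENSG00000157601, chr21:41420020-41470071, plus strand), a GTPase that traps viral nucleocapsids, was at 64.9 and 92.8 TPM with TAp63 and at 37.8 and 49.97 TPM with deltaNp63. The groups did not overlap, and both were far below the mock libraries at 228 and 256 TPM. The difference was 0.82 (SE 0.176, 95% interval 0.43 to 1.21, adjusted p 0.611). Its neighbour MX2 was at 11.8 and 21.5 TPM against 9.30 and 8.82 TPM, with the high value in TAp63 replicate 2.

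The oligoadenylate synthetases, which sense double-stranded RNA and activate RNase L, were higher with TAp63 in each of 4 genes. OAS1 was at 133 and 154 TPM against 81.4 and 118 TPM. OAS2 was at 30.6 and 41.8 TPM against 17.8 and 23.1 TPM (difference 0.79, SE 0.169). OAS3 was at 59.7 and 80.3 TPM against 37.9 and 48.9 TPM (difference 0.67, SE 0.165). OASL, the family member without synthetase activity, was at 166 and 195 TPM against 122 and 157 TPM. None of these groups overlapped, and in each of the 4 the TAp63 library of replicate 2 was the highest of the 4 libraries.

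The IFIT proteins bind foreign RNA ends. IFIT3 (ENSG00000119917) was at 42.0 and 46.7 TPM against 28.6 and 33.3 TPM (difference 0.51, SE 0.0984, adjusted p 0.475), and IFIT1, IFIT2 and IFIT5 differed by 0.40, 0.45 and 0.32, without overlap. At the level of transcripts, IFIT3-201 (ENST00000371811) was higher with TAp63 by 1.28 on the log2(TPM + 1) scale (SE 0.106). Its limma adjusted p was 0.00865 over 47437 transcript rows, of which 0.0126% were called. IFIT3-201 was at 9.14 and 9.56 TPM with TAp63 and 3.10 and 3.45 TPM with deltaNp63, against 22.5 and 20.4 TPM in mock. The larger IFIT3-202 was at 32.9 and 37.1 TPM against 25.5 and 29.8 TPM (difference 0.33, adjusted p 0.782). IFIT3-201 was the 1 called transcript outside TP63.

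Further members act in protein modification, and those given here were chosen after their values were seen. UBE2L6, the conjugating enzyme for ISG15, was at 6.05 and 9.65 TPM against 4.18 and 4.83 TPM, and the protease USP18, which removes ISG15, at 24.3 and 30.2 TPM against 15.7 and 20.1 TPM. PARP9 was at 31.8 and 32.6 TPM against 21.2 and 24.5 TPM (difference 0.48, SE 0.0878, adjusted p 0.413), the smallest p of the list. Its partner DTX3L, which lies head to head with it on the other strand, differed by 0.46. PARP10, PARP12 and PARP14 differed by 0.60, 0.34 and 0.46, and the ligases HERC5 and HERC6 by 0.51 and 0.56, without overlap. RNF213, a large ubiquitin ligase, was at 11.5 and 10.5 TPM against 7.36 and 6.79 TPM. IFI6, a mitochondrial protein that restrains apoptosis, was at 406 and 502 TPM against 261 and 344 TPM.

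Of the transcription factors of the pathway, STAT2 and IRF9 differed by 0.11 and 0.05. IRF1 differed by 0.32 and IRF7 by 0.16. The RNA sensors RIGI and IFIH1 differed by 0.25 and 0.46. Members with a difference below 0 numbered 6, and they included the chemokines CXCL10 and CXCL11, which were at or below 1.44 TPM, and SP100 and DDX60L.

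**Figure D4:**
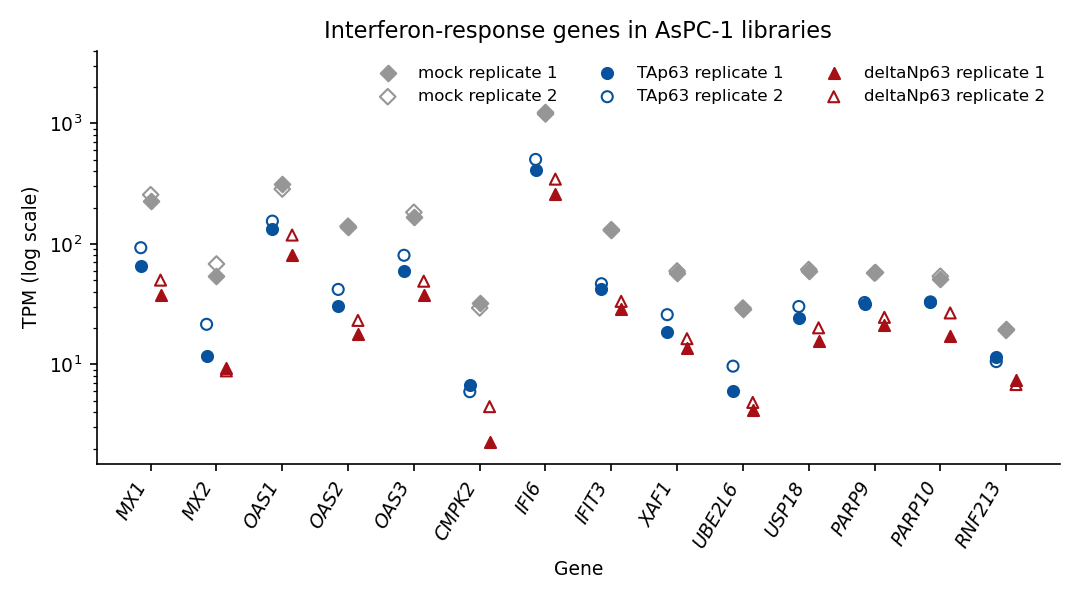
Level of 14 interferon-response genes in TPM (vertical axis, log scale) in the AsPC-1 libraries, with a symbol for each group and filled or open symbols for replicates 1 and 2. For each gene shown the mock libraries are highest, the TAp63 libraries lie between, and the deltaNp63 libraries are lowest, as for MX1 at 228 and 256, 64.9 and 92.8, and 37.8 and 49.97 TPM. The 14 were picked with their values known. Of all 64 tested members, 48 had TAp63 above deltaNp63 without overlap and 6 had a difference below 0.

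The mock libraries give the scale of these differences. The summed level of the list was 8802 and 9270 TPM in mock, 4459 and 5137 TPM with TAp63 and 3669 and 3994 TPM with deltaNp63. Both p63 groups were thus below mock, and the TAp63 libraries lay between the others. The sum of 14 leukocyte markers was 207 and 210 TPM with TAp63 and 212 and 199 TPM with deltaNp63, with PTPRC listed at 0 and 12 of the 14 below 1 TPM in all 4 libraries. The GC content of the list was near that of all genes, with a median of 47.4% against 49.7%.

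The promoters of the list were searched for the core of the interferon-stimulated response element, written GAAANNGAAA, on both strands of the 250 bases upstream of the RefSeq start in GRCh38.p14. Of the 64 genes, 51 had a promoter in the table, and 25 of these held the motif (49.0%). It was present in 2.24% of the promoters of all tested genes that matched and in 3.07% of all 27305 promoters of this length. The list was chosen as interferon-response genes, so its share describes the list and not the difference between the forms. The promoters of MX1, PARP9, OAS1 and RNF213 held no match. The search required exactly the 2 bases written NN between the GAAA repeats, so elements with a shorter gap were not counted. The promoters of OAS1, RSAD2 and RIGI, counted as without the motif, hold GAAACGAAA. The median difference was 0.37 for the 25 with the motif and 0.32 for the 26 without it. In 20 of each the TAp63 libraries lay above without overlap, where 19.6% of all tested genes did so. These groups thus do not divide the genes by presence of a response element. A match is a string of letters and not a measured binding site. Below are the promoters of OAS3, IFIT3 and IFI6, which are described above and hold at least 2 matches each, written in the direction of transcription with the matches in capitals. They are at chr12:112938224-112938473 on the plus strand, chr10:89327747-89327996 on the plus strand and chr1:27672193-27672442 on the minus strand.
OAS3: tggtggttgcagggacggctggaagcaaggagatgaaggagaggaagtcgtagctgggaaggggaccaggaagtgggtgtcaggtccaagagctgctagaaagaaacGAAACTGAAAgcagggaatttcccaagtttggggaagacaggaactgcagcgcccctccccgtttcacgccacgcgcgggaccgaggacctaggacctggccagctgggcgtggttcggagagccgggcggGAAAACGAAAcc
IFIT3: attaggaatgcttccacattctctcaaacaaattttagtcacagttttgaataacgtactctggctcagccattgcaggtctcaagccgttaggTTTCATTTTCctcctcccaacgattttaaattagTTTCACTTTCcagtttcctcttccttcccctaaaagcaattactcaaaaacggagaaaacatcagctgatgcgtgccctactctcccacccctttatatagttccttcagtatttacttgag
IFI6: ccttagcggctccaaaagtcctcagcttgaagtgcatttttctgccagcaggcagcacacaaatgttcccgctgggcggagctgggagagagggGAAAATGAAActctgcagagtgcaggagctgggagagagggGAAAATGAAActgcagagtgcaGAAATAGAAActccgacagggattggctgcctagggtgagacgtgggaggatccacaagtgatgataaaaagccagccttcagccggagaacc

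Antigen presentation by MHC class I, which interferon also feeds, had 18 of 19 genes tested and 0 called. The peptide transporter genes TAP1 and TAP2, the loading factor TAPBP, the immunoproteasome subunit PSMB9, the trimming enzyme ERAP1 and the activator NLRC5 were the 6 members higher with TAp63 at an unadjusted p under 0.05. TAP2 was at 5.23 and 4.52 TPM against 2.61 and 3.78 TPM (difference 0.50, SE 0.140, adjusted p 0.628). The heavy chain HLA-C and the light chain B2M overlapped between the groups. In all, 8 members lay above without overlap and 0 below, where 19.6% and 9.87% of all genes did so and 5.55% were higher at an unadjusted p under 0.05. The median was 0.13, at 0.17 and 0.15 against the 2 deltaNp63 libraries, and it was 0.05 after median centring. In the model of the 4 libraries alone, 0 members were higher at an unadjusted p under 0.05 in limma, beside 2.04% of all genes.

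Genes of the cytosolic ribosome lay on the other side. All 79 were tested and 0 passed. Both TAp63 libraries lay below both deltaNp63 libraries in 36 and above in 4, where 9.87% and 19.6% of all genes did so, and 10 members were lower at an unadjusted p under 0.05, beside 2.37% of all genes. In the model of the 4 libraries alone, 1 member was lower at an unadjusted p under 0.05 in limma, beside 188 of all 14767 genes. The differences were small, with a median of -0.07. RPL34 was at 1202 and 1085 TPM with TAp63 and 1412 and 1296 TPM with deltaNp63 (difference -0.24, SE 0.0803, adjusted p 0.628), and RPS27A at 2566 and 2271 TPM against 3132 and 2702 TPM. The list's summed level was 155332 and 151558 TPM against 159780 and 163588 TPM, and 148928 and 139772 TPM in mock. The count without overlap depended on the scaling, with 23 below after quantile normalization (13.8% of all genes) and 58 after median centring (17.3%), and 60 members lay below deltaNp63 replicate 2 alone (25.8% of all genes) and 42 below replicate 1 alone (28.7%). The median stayed below 0 under each of these scalings, between -0.15 and -0.03.

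Other lists turned on deltaNp63 replicate 1. The clearest was that of cell cycle and DNA replication, with 47 genes tested and 0 called. Its median was 0.22, which was made of 0.43 against deltaNp63 replicate 1 and 0.00 against replicate 2. Both TAp63 libraries lay above replicate 1 in 43 members (47.4% of all genes) and above replicate 2 in 13 (34.1% of all genes). They lay above both in 11 and below both in 0, where 19.6% and 9.87% of all genes did so. In PANC-1, 23 members lay above without overlap and 2 below, beside 20.2% and 13.8% of all genes, with a median of 0.10. Without deltaNp63 replicate 2, 23 members passed the adjusted test, all higher with TAp63, beside 5.51% of all genes, and without replicate 1 the count was 0, with 0 at an unadjusted p under 0.05.

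Single genes show this. MCM3, a subunit of the replicative helicase, was at 17.3 and 22.2 TPM with TAp63 and at 8.92 and 22.4 TPM with deltaNp63. PCNA, the sliding clamp, was at 102 and 90.4 TPM against 60.5 and 96.9 TPM. In both the low library was deltaNp63 replicate 1, and replicate 2 lay within or beside the TAp63 values. The proliferation marker MKI67 was at 13.1 and 16.6 TPM against 9.02 and 12.4 TPM and did not overlap (difference 0.44, SE 0.154, adjusted p 0.628).

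**Figure D5:**
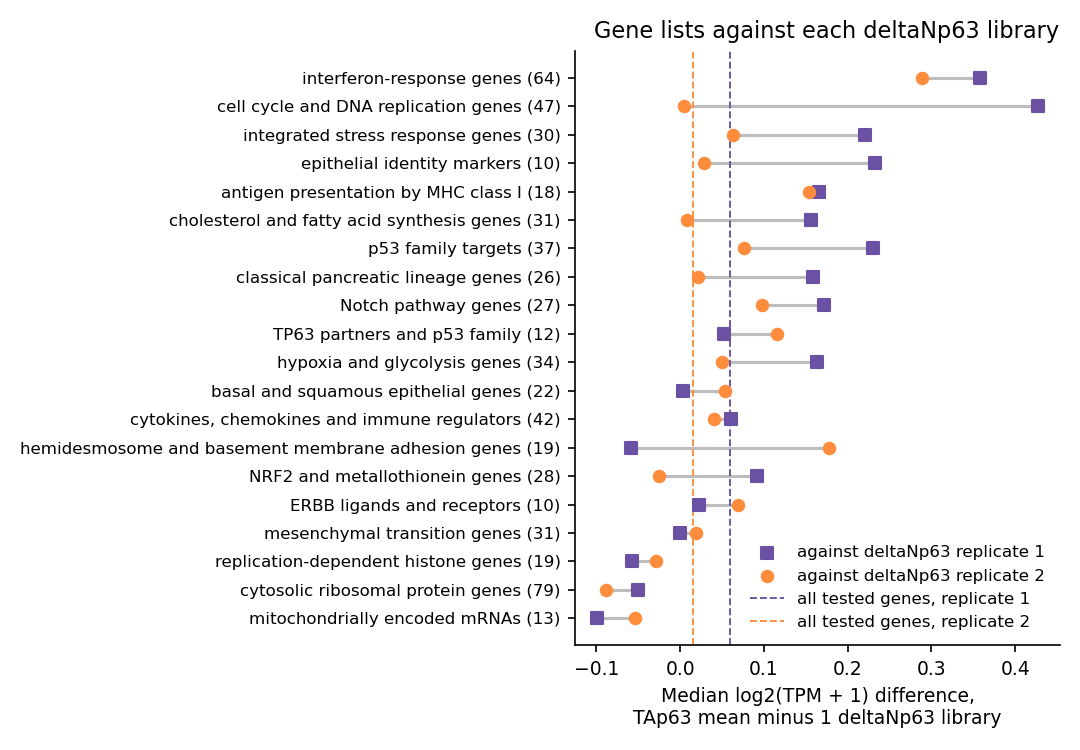
Median log2(TPM + 1) difference between the TAp63 mean and a single deltaNp63 library (horizontal axis) for the gene lists with at least 10 tested members, the number tested in brackets, with dashed lines for all tested genes. The interferon-response genes lie at 0.36 and 0.29, to the right of both lines, while the cell cycle genes lie at 0.43 against replicate 1 and 0.00 against replicate 2.

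Targets of the p53 family were examined next, since both forms bind the same kind of element. Of 40 listed genes, 37 were tested and 0 passed. In 12 the TAp63 libraries lay above without overlap and in 4 below, where 19.6% and 9.87% of all genes did so, and 7 were higher at an unadjusted p under 0.05, beside 5.55%. The median was 0.09, at 0.23 against deltaNp63 replicate 1 and 0.08 against replicate 2, and it was 0.02 after median centring.

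PHLDA3 (ENSG00000174307, chr1:201464278-201469237, minus strand), a repressor of AKT signalling, had the smallest p of the list. It was at 5.07 and 6.17 TPM with TAp63 and at 2.00 and 2.83 TPM with deltaNp63, with 4.87 and 6.08 TPM in mock. The deltaNp63 libraries were the low ones and the TAp63 libraries overlapped mock. The difference was 0.96 (SE 0.166, 95% interval 0.59 to 1.33, limma adjusted p 0.364). Without deltaNp63 replicate 2 PHLDA3 passed (adjusted p 0.0158), and over all alternatives its adjusted p ran from 0.0158 to 0.977. It overlaps ENSG00000224818 on the same strand.

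Other targets differed less. The named ones without overlap are all higher with TAp63, while 4 members of the list lay below without overlap (9.87% of all genes did so). DRAM1, a lysosomal inducer of autophagy, was at 1.43 and 1.71 TPM against 0.919 and 0.731 TPM, the apoptosis effector BAX at 111 and 121 TPM against 95.4 and 96.5 TPM, and the DNA repair gene XPC at 14.02 and 16.1 TPM against 11.6 and 12.4 TPM. The cell cycle inhibitor CDKN1A, the best known target, was at 282 and 288 TPM against 300.4 and 263 TPM and overlapped (difference 0.02). MDM2, which marks p53 for degradation, also overlapped, at 7.92 and 8.999 TPM against 5.47 and 9.40 TPM. TP73 did not exceed 0.272 TPM.

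The partner genes of p63 were close between the groups. Of 12 listed with the p53 family, 0 passed, and 2 lay below without overlap, TP63 among them, and 1 above, TP73. The ubiquitin ligases ITCH and WWP1, which target p63, were at 107 and 96.9 TPM against 117 and 91.9 TPM, and at 16.3 and 19.0 TPM against 15.5 and 18.2 TPM. PPP1R13L was at 60.9 and 70.6 TPM against 61.2 and 57.9 TPM. MDM4, TP53BP2, HIPK2 and FBXW7 had adjusted p between 0.798 and 0.953.

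Basal and squamous epithelial genes were compared because the title of the series names the squamous subtype of pancreatic cancer. Of 50 listed genes, 22 were tested, 49 were in the table, and 0 passed. In 4 the TAp63 libraries lay above without overlap and in 1 below, where 19.6% and 9.87% of all genes did so, and the count above is near that share. The median was 0.04, turning to -0.03 after median centring and to 0.00 after quantile normalization. S100A2, a known p63 target, was at 67.2 and 65.2 TPM against 144 and 66.7 TPM. FGFBP1 showed the same shape, at 8.36 and 9.07 TPM against 17.3 and 8.45 TPM. KRT16 had the opposite one, at 17.3 and 17.9 TPM against 8.01 and 18.7 TPM. In these 3 genes deltaNp63 replicate 1 alone differed from the other libraries. The squamous genes DSG3 and KRT17 were close in all 4 libraries, at 36.9, 33.3, 34.7 and 32.8 TPM and at 3.72, 3.51, 3.63 and 3.52 TPM.

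Genes of hemidesmosomes and basement membrane adhesion, a set that p63 is known to control in skin, were higher than in deltaNp63 replicate 2 but not than in replicate 1. Of 20 listed, 19 were tested and 0 passed, with 4 above without overlap and 0 below, where the shares of all genes were 19.6% and 9.87%. The median was -0.06 against deltaNp63 replicate 1 and 0.18 against replicate 2. Both TAp63 libraries lay above replicate 2 in 15 members and below it in 0 (34.1% and 25.8% of all genes). They lay above replicate 1 in 6 and below it in 8 (47.4% and 28.7% of all genes). In PANC-1, 9 members lay above without overlap and 1 below, beside 20.2% and 13.8% of all genes, with a median of 0.12. LAMA5, a laminin chain, was at 71.9 and 85.0 TPM against 59.5 and 68.0 TPM (difference 0.29, SE 0.120, adjusted p 0.628).

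Classical pancreatic lineage genes, the programme set against the squamous one, had 26 of 38 tested and 0 called, with 6 above and 2 below without overlap, near the 19.6% and 9.87% of all genes. Their median was 0.09, at 0.16 and 0.02 against the deltaNp63 libraries. CEACAM5 was at 30.7 and 31.6 TPM against 25.2 and 27.3 TPM, and FXYD3 at 32.7 and 30.6 TPM against 24.4 and 26.4 TPM. TSPAN8 was lower, at 234 and 194 TPM against 258 and 243 TPM.

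Cytokines, chemokines and immune regulators, a subject that the title also names, had 42 of 54 tested and 0 called, with 13 above and 2 below without overlap, beside 19.6% and 9.87% of all genes, and a median of 0.04. LGALS9, a lectin that binds immune checkpoints, was at 16.98 and 25.6 TPM against 8.14 and 18.7 TPM and overlapped. CD276, a checkpoint ligand, was at 38.04 and 40.0 TPM against 32.8 and 34.2 TPM, LIF at 210 and 226 TPM against 157 and 194 TPM, and TGFB1 at 15.5 and 16.6 TPM against 12.5 and 14.8 TPM. The last 3 did not overlap, with limma adjusted p between 0.628 and 0.633.

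PANC-1 offers the same comparison in libraries that it does not share with AsPC-1. There 4 of 14767 genes passed (0.0271%), and none of the 3 AsPC-1 genes was among them. The test of the difference between the lines called 0 genes, with 470 at an unadjusted p under 0.05, or 3.18% (lowest adjusted p 0.0934, limma without trend called 4). Across genes, which are not independent replicates, the differences of the lines correlated at a Pearson's r of 0.127.

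The interferon-response genes did not share the AsPC-1 pattern in PANC-1. Their median difference there was -0.08, with 4 members above without overlap and 22 below, where 20.2% and 13.8% of all genes did so. MX1 was at 458 and 430 TPM with TAp63 and 411 and 503 TPM with deltaNp63 in PANC-1, and the summed level of the list was between 14306 and 15453 TPM in those 4 libraries, above all AsPC-1 libraries. In the test of the difference between the lines, 35 members were higher in AsPC-1 at an unadjusted p under 0.05, beside 1.94% of all genes, and 0 passed after adjustment. For MX1 that difference was 0.86 (SE 0.248) and for IFIT3 0.75 (SE 0.139, limma adjusted p 0.437). TP63 differed between the forms by -1.56 in PANC-1, so the lines differed in this by 0.41 (SE 0.357).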

How the data were processed

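The authors deposited TPM values for 153329 Ensembl transcripts in 12 libraries, each column summing to 1000000. The quantifier, genome build and annotation are not given in the sources used here, and TPM keeps no depth. Libraries were made with a stranded mRNA kit, per the labels' protocols. Through GENCODE release 44 (hg38), 139819 transcripts (91.2%, holding 89.6% to 90.5% of the TPM) were summed to 39099 genes, and 13510 unmatched transcripts were left out. Values were analysed as log2(TPM + 1), a scale on which changes at low levels look too small. The 14767 genes that reached 1 TPM in 2 or more libraries were fitted with limma 3.58.1 (R 4.3.3) with eBayes trend, a mean for each of 6 groups and 6 residual degrees of freedom. The contrast is TAp63 minus deltaNp63 in AsPC-1, so no mock mean enters it. The mock and PANC-1 libraries add only to the shared spread. The median SD of a gene was 0.149 in AsPC-1 deltaNp63 and 0.105 in AsPC-1 TAp63. In AsPC-1 mock it was 0.092, and in the PANC-1 groups between 0.065 and 0.099. The shared spread can therefore understate that of the libraries compared. P-values were two-sided and adjusted by Benjamini-Hochberg over all genes, with a threshold of 0.05. The code was tested on simulated data.

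The members and the 23 gene lists were chosen with earlier results of these data known, so no list is independent evidence of its direction. Named genes are TP63, its transcripts and the p53 family list; every gene past the threshold; the 12 largest differences each way among non-overlapping protein-coding genes of at least 5 TPM; and up to 4 members of each list with the smallest p. Further list members were named after their values were seen. A gene's GC content was the mean over its transcripts weighted by their TPM, and its trend was removed by loess with a span of 0.3. Promoters are those of RefSeq, GRCh38.p14. Alternatives were other scalings, filters, pseudocounts, sets of libraries, transcript rows, a replicate block and leaving out each library; the fit with its filter on the 4 libraries, the GC correction and the left-out libraries for counts without overlap were chosen after seeing the data. Figures were drawn with matplotlib. Results for some genes are not reported here.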

Additional observations from a re-analysis of the deposited data

How the results depend on the processing

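Of the count of 3 genes, the same 3 passed without the trend, after quantile normalization, after median centring, with a pseudocount of 0.1 and after removal of the GC trend. A fit of the 6 AsPC-1 libraries called 3 genes, 1 of them higher with TAp63, and a fit of the 8 p63 libraries 4, also with 1 higher. With no filter on low values 18 passed, when the mean had to reach 5 TPM 0, among protein-coding genes 1, in the model of the 4 libraries 0, with their own filter also 0, and over transcript rows 6. Leaving out 1 library gave between 0 and 1025 genes: 1 and 0 without TAp63 replicate 1 and 2, 2 without deltaNp63 replicate 1, and 1025 without deltaNp63 replicate 2. A lone library left in a group is assumed to vary like the other groups. The difference between the lines called 4 genes without the trend, 2 after quantile normalization and 24 with no filter. Ribosomal protein genes below without overlap numbered 23 after quantile normalization, 58 after median centring and between 42 and 60 with 1 library left out. The cause was not tested. None of the results changed direction while called. A fit with a replicate block called 0 genes (1631 at an unadjusted p under 0.05); same-numbered libraries deviated together with r = 0.293 in AsPC-1 and -0.043 in PANC-1, over 2 pairs each. The labels tie a number to no shared batch and 2 pairs are too few to decide, so whether the numbers pair the AsPC-1 libraries was not settled, and there replicate 1 minus 2 ran the same way with GC content in all 3 groups. TPM keeps no depth, so counting error of low genes is unknown.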

Other observations

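Several metabolic and stress lists were higher with TAp63 at an unadjusted p under 0.05 in a few members, with 0 called by limma in each, and most of these members were lowest in deltaNp63 replicate 1. Of 34 hypoxia and glycolysis genes, 11 lay above without overlap and 1 below, with a median difference of 0.06 and 7 at an unadjusted p under 0.05. GPI, a glycolytic isomerase, was at 109 and 113 TPM against 77.7 and 93.9 TPM, and CA9, a carbonic anhydrase of hypoxic cells, at 58.9 and 57.2 TPM against 32.1 and 50.9 TPM. Of 30 integrated stress response genes, 14 lay above and 0 below, with a median of 0.17 and 3 at an unadjusted p under 0.05. ATF3, a stress transcription factor, was at 117 and 113 TPM against 76.1 and 104 TPM. Of 31 cholesterol and fatty acid synthesis genes, 7 lay above and 0 below, with a median of 0.10, and 5 had an unadjusted p under 0.05. SREBF1, a regulator of lipid synthesis, was at 143 and 168 TPM against 103 and 138 TPM. In PANC-1 22 of these 31 lay above and 0 below, with a median of 0.16. For all tested genes the shares in AsPC-1 were 19.6% above and 9.87% below, while PANC-1 had 20.2% and 13.8%. In AsPC-1, 5.55% of all genes were higher with TAp63 at an unadjusted p under 0.05 in limma.

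The remaining lists had few members past an unadjusted p of 0.05, and their counts without overlap stand beside the same 19.6% above and 9.87% below of all genes in AsPC-1. Of 27 Notch pathway genes 10 lay above and 0 below, with a median of 0.09, and MAML2, a coactivator, was at 6.55 and 6.20 TPM against 4.06 and 5.12 TPM. Of 28 NRF2 and metallothionein genes 4 lay above and 4 below, with a median of 0.03. Of 31 mesenchymal transition genes 7 lay above and 2 below, with a median of 0.00. Of 10 ERBB ligands and receptors 3 lay above and 0 below, with a median of 0.02. Of 19 replication-dependent histone genes 2 lay above and 4 below, and 11 had a difference below 0, with a median of -0.06. H3C10 went against the list's median, at 2.11 and 2.10 TPM against 0.906 and 1.20 TPM. The 13 mitochondrially encoded mRNAs all overlapped, with a median of -0.08. Among 10 epithelial markers 1 lay above and 1 below, with a median of 0.16. Of the leukocyte, fibroblast, and endothelial and red cell markers, 4, 4 and 1 were tested, with medians of 0.07, 0.03 and 0.19, and 1 lay above without overlap. After median centring the medians of the NRF2, ERBB, hypoxia, mesenchymal, fibroblast, leukocyte, hemidesmosome and cytokine lists were below 0.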
